A study of Saccharomyces cerevisiae with 11 samples.

Results

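The 8 genes described here encode the core enzymes that move one-carbon units between serine, glycine and folate in Saccharomyces cerevisiae. They were chosen by name (SHM1, SHM2, ADE3, MTD1, MIS1, GCV1, GCV2 and GCV3), with the spots of each gene averaged on each array. Their locus tags are YBR263W (SHM1), YLR058C (SHM2), YGR204W (ADE3), YKR080W (MTD1), YBR084W (MIS1), YDR019C (GCV1), YMR189W (GCV2) and YAL044C (GCV3). All 8 were found among the 5598 genes named on the low phosphate arrays and among the 5636 genes named on the high phosphate arrays, 5641 genes in all. They had 14 spots on each array design, 2 for each of 6 genes and 1 each for GCV1 and GCV3, and every gene had a value on all 11 arrays.

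The series exposed cultures of strain S288C to 2 μM arsenate, a chemical analogue of phosphate, and compared each with a culture that received sodium chloride in its place. Cultures grew in synthetic medium with 2% sucrose at 30 °C, and arsenate was added at an optical density of 0.08. The arsenate cultures in 100 μM phosphate (low phosphate) were sampled at 4, 8 and 10 h with 2 arrays each. Those in 1 mM phosphate (high phosphate) were sampled at 4 and 8 h with 2 arrays each and at 10 h with 1. RNA of a control without arsenate was the second channel of each array. RNA came from whole cultures, so fewer cells that express a gene and less of its RNA per cell cannot be told apart.

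Folate carries single carbon atoms at several oxidation states between reactions. Serine hydroxymethyltransferase takes a carbon from serine, leaves glycine, and makes methylene-tetrahydrofolate, in the cytosol through SHM2 and in the mitochondrion through SHM1. ADE3 in the cytosol and MIS1 in the mitochondrion are trifunctional enzymes that interconvert methylene-, methenyl- and formyl-tetrahydrofolate, and MTD1 is a cytosolic NAD-dependent methylene-tetrahydrofolate dehydrogenase. The glycine cleavage complex of the mitochondrion breaks glycine down to carbon dioxide, ammonia and a folate-bound carbon. GCV2 is its glycine decarboxylase (P protein), GCV3 its lipoate-bearing carrier (H protein), GCV1 its aminomethyltransferase (T protein), and LPD1, which other dehydrogenase complexes share, is its lipoamide dehydrogenase. Formyl-tetrahydrofolate feeds purine synthesis, and the activators Bas1 and Pho2 act on purine genes and on several of the one-carbon genes. Pho2 is also a partner of Pho4, the activator of the phosphate starvation genes.

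All values are log2 ratios of arsenate over control as deposited, so 1 is a doubling and -1 a halving. "Rose", "fell" and "passed" refer to an adjusted p under 0.05 in limma, fitted across all genes with Benjamini-Hochberg adjustment. SD is the standard deviation of the 2 arrays of a time and SE the moderated standard error. Between 4484 and 5451 genes had a value on an array, and the median over genes lay between -0.18 and 0.18. Over genes, Pearson's r between the 2 replicate arrays of a time was 0.767 (4 h), 0.936 (8 h) and 0.836 (10 h) in low phosphate, but 0.547 (4 h) and 0.199 (8 h) in high phosphate. Genes are not independent replicates, so these correlations describe the arrays only. ARR2, the arsenate reductase, was above 3 on each array that measured it, from 5.23 to 8.00 at low phosphate and from 3.34 to 3.59 at high phosphate. ARR3, the second gene taken as a check of the arsenate labels, was above 0 on each array but varied more between replicates. It ran from 2.66 to 7.11 at low phosphate and from 0.44 to 4.35 at high phosphate. Its high phosphate arrays at 4 h read 3.29 and 0.44. Every array had the arsenate RNA in Cy5, and any dye bias of a gene remains in its ratio. The labels do not say that replicates were separate cultures, so p-values measure the spread between these arrays, which may be technical.

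**Figure D1:**
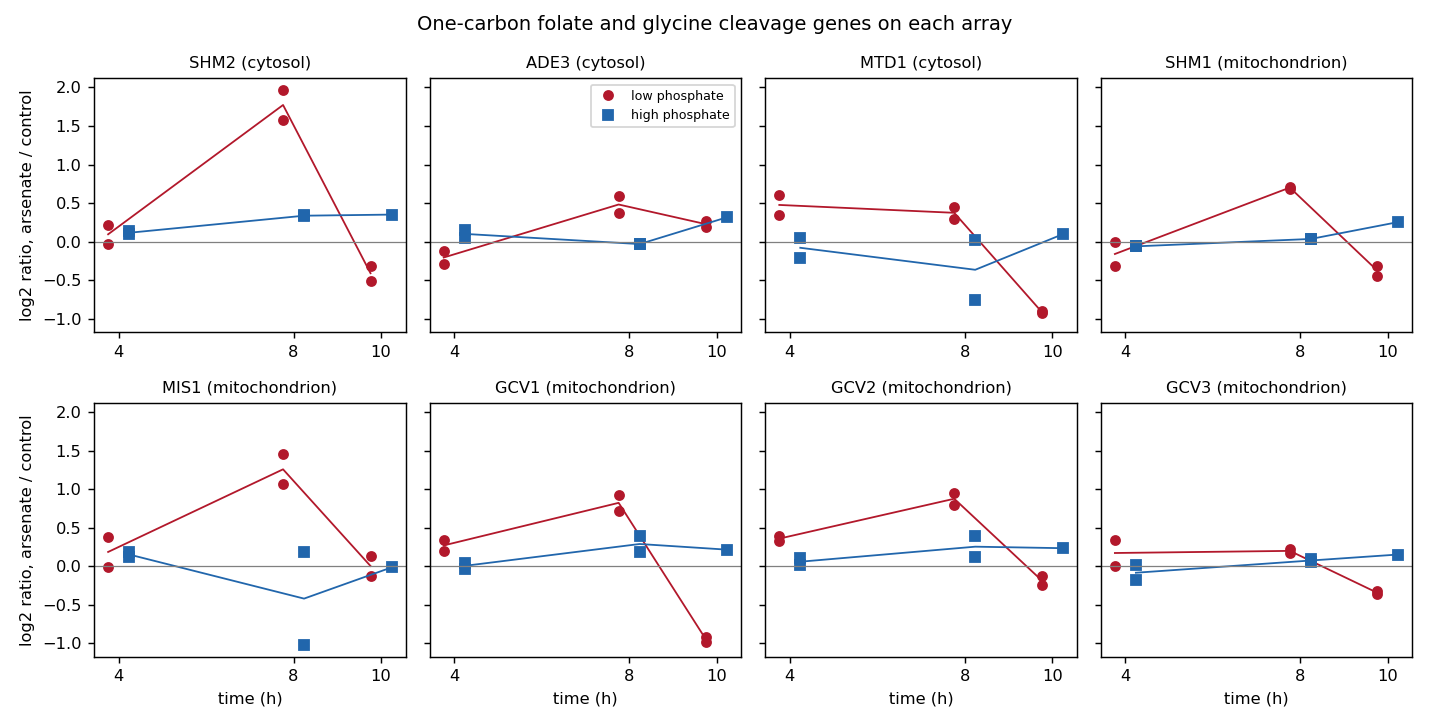
Log2 ratio of arsenate over control (vertical axis) against time in hours for each of the 8 genes, with 1 point per array, set slightly left (low) or right (high) of its time, and lines through the means. Circles are low phosphate and squares high phosphate. The low phosphate values of SHM2 and MIS1 peak at 8 h, with means of 1.77 and 1.26, and those of GCV1 and MTD1 end lowest, at -0.95 and -0.91 at 10 h.

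At 8 h of low phosphate the one-carbon genes stood above control, in both compartments. SHM2 had the highest ratio, 3.42-fold over control, and MIS1 followed at 2.39-fold. GCV2 and GCV1 stood at 1.83-fold and 1.77-fold and SHM1 at 1.63-fold. Of the 8 genes 7 rose and 0 fell, where 18.3% of the 5185 genes tested rose and 30.5% fell (27.9% and 22.8% after each array was centred on its median). The median of the 8 was 0.76 and that of all genes tested was -0.13.

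In the cytosol, SHM2 stood at 1.97 and 1.58 on the 2 arrays at 8 h (mean 1.77, SD 0.28, adjusted p = 5.02e-09). Both values lie above those of SHM2 at the other times. ADE3 stood at 0.59 and 0.38 (mean 0.48, SD 0.15, adjusted p = 0.0029). MTD1 stood at 0.45 and 0.30 (mean 0.37, SD 0.10, adjusted p = 0.016), the lowest of the 3 cytosolic enzymes. ADE3 did not pass without the first 8 h array and MTD1 without either 8 h array or when taken from its highest-numbered spot. Over their alternatives adjusted p ran from 0.000243 to 0.155 for ADE3 and from 0.000779 to 0.268 for MTD1.

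In the mitochondrion, MIS1 stood at 1.45 and 1.06 at 8 h (mean 1.26, SD 0.28, adjusted p = 5.19e-07), the second value from 1 spot. GCV2 stood at 0.95 and 0.80 (mean 0.88, SD 0.11, adjusted p = 7.19e-06) and GCV1 at 0.93 and 0.72 (mean 0.82, SD 0.15, adjusted p = 1.72e-05). SHM1 stood at 0.71 and 0.69 (mean 0.70, SD 0.02, adjusted p = 0.000121). The H protein gene GCV3 was the exception in the complex, at 0.22 and 0.18 (mean 0.20, SD 0.03, adjusted p = 0.187). It passed only after centring or scaling of the arrays, with 0.34 after centring, and its adjusted p over all alternatives ran from 0.00542 to 0.536. SHM2, MIS1, SHM1, GCV1 and GCV2 passed under all 15 alternatives at this time. SHM2 was above 99.7% of all genes at 8 h, MIS1 above 98.5%, GCV2 above 94.2%, and GCV3 above 76.6%.

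**Figure D2:**
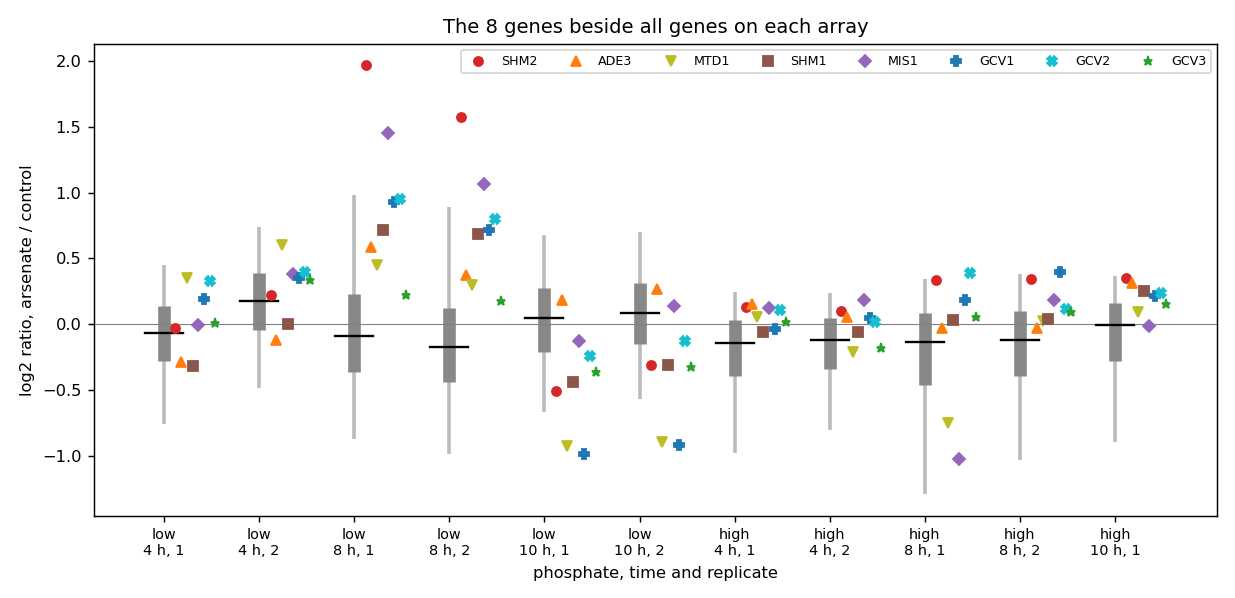
Log2 ratio of arsenate over control for the 8 genes (symbols) beside all genes on each of the 11 arrays, named by phosphate condition, time and replicate. The thick bar spans the first to the third quartile, the thin line the 5th to the 95th percentile, and the short horizontal line the median. SHM2 (1.97 and 1.58) and MIS1 (1.45 and 1.06) lie above the thin line on both low phosphate arrays at 8 h, and MTD1 and GCV1 lie below it on both at 10 h.

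At 4 h of low phosphate only MTD1 and GCV2 passed, both higher. MTD1 stood at 0.35 and 0.60 (mean 0.48, SD 0.18, adjusted p = 0.00728), and GCV2 at 0.32 and 0.39 (mean 0.36, SD 0.05, adjusted p = 0.0315). These were 2 genes higher and 0 lower of 8, where 14.7% of all genes tested rose and 11.6% fell. With 8 genes, a count of 2 is near that background. Neither call held throughout. Without the second 4 h array neither passed, and GCV2 also failed without any 1 of the 8 h or 10 h arrays. Array weights ended both calls, and adjusted p ran from 0.00155 to 0.127 for MTD1 and from 0.0136 to 0.258 for GCV2.

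SHM2, the gene with the highest ratio at 8 h, was at -0.03 and 0.22 at 4 h (mean 0.10, 95% interval -0.18 to 0.37), so one array lay on each side of control. ADE3 stood at -0.29 and -0.12 and SHM1 at -0.32 and 0.00, the 2 genes with negative means. Centring the arrays, whose medians at 4 h were -0.07 and 0.18, put ADE3 at -0.26 and SHM1 at -0.21 and both passed as lower, so the split of the 8 became 2 higher and 2 lower, where 17.03% of all genes were higher and 17.8% lower after centring. Over all alternatives adjusted p ran from 0.016 to 0.559 for ADE3 and from 0.0296 to 0.996 for SHM1. MIS1 stood at -0.01 and 0.38, GCV1 at 0.19 and 0.35 and GCV3 at 0.01 and 0.34. None of these 3 passed (adjusted p = 0.337, 0.104 and 0.321), and the second array was the higher for each of the 8 genes. GCV1 passed after centring and scaling and GCV3 without the first 4 h array, with adjusted p from 0.0298 to 0.414 and from 0.0489 to 0.972 over their alternatives.

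At 10 h of low phosphate the direction was the opposite for most of the genes. Of the 8, 0 rose and 5 fell, where 20.2% of all genes tested rose and 12.8% fell (20.1% and 20.5% after centring). The median of the 8 was -0.36, and that of all genes tested was 0.07. GCV1 and MTD1 fell furthest, to about 0.517 and 0.532 of control. GCV1 was above 1.4% of all genes and MTD1 above 1.6%.

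GCV1 stood at -0.98 and -0.92 at 10 h (mean -0.95, SD 0.05, adjusted p = 1.57e-05). MTD1 stood at -0.93 and -0.90 (mean -0.91, SD 0.02, adjusted p = 2.58e-05). Both arrays of each were below every 4 h and 8 h array of the same gene, and both passed under all 15 alternatives. SHM2 stood at -0.51 and -0.31 (mean -0.41, SD 0.14, adjusted p = 0.0215), SHM1 at -0.44 and -0.31 (mean -0.38, SD 0.09, adjusted p = 0.0249), and GCV3 at -0.37 and -0.32 (mean -0.34, SD 0.03, adjusted p = 0.0374). These 3 falls are smaller and depended on single arrays. None of them passed without either 10 h array, and GCV3 also failed without either 8 h array. Adjusted p over their alternatives reached 0.373 for SHM2, 0.374 for SHM1 and 0.351 for GCV3, with lowest values of 0.00471, 0.00358 and 0.00412.

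GCV2, MIS1 and ADE3 did not pass at 10 h. GCV2 stood at -0.24 and -0.13 (adjusted p = 0.247), and passed as lower after centring, at -0.25, with adjusted p over its alternatives from 0.0386 to 0.774. MIS1 lay on both sides of control, at -0.13 and 0.14 (95% interval of the mean -0.28 to 0.29). ADE3 was the one gene with both arrays above control, at 0.19 and 0.27 (mean 0.23, adjusted p = 0.16). The GCV genes lay at -0.95 (GCV1), -0.34 (GCV3) and -0.18 (GCV2) at 10 h, after 0.82, 0.20 and 0.88 at 8 h for the same genes in that order.

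Averaged over the 3 times at low phosphate, 3 of the 8 rose and 0 fell, where 19.1% of all genes rose and 20.1% fell. SHM2 stood at 0.49 (SE 0.08, adjusted p = 4.75e-05), MIS1 at 0.48 (SE 0.08, adjusted p = 8.54e-05) and GCV2 at 0.35 (SE 0.07, adjusted p = 0.000512). These means rest on 8 h. Without the 8 h arrays, an alternative chosen after the data were seen, SHM2 stood at -0.16, MIS1 at 0.09 and GCV2 at 0.09, and none passed. In the same fit GCV1 passed as lower at -0.34, where the mean of the 3 times was 0.05. Adjusted p over the alternatives ran from 1.43e-09 to 0.279 for SHM2, from 2.25e-09 to 0.558 for MIS1, from 1.82e-05 to 0.574 for GCV2 and from 0.0114 to 0.946 for GCV1. ADE3, at 0.17 (SE 0.07, adjusted p = 0.0645), passed after centring and also when the first 4 h array was left out, over a range from 0.0129 to 0.958.

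The differences between times were tested directly, and a constant dye preference cancels in them. From 4 h to 8 h, 6 of the 8 genes rose and 0 fell, where 12.1% of all genes rose and 21.0% fell (25.0% and 16.3% after centring). SHM2 rose by 1.68 (SE 0.18, adjusted p = 2.55e-06), MIS1 by 1.07 (SE 0.19, adjusted p = 0.000407) and SHM1 by 0.86 (SE 0.17, adjusted p = 0.00109), and these 3 passed under all 15 alternatives. ADE3 rose by 0.69 (SE 0.17), GCV1 by 0.55 (SE 0.17) and GCV2 by 0.52 (SE 0.17). None of these 3 passed without the first 8 h array, and GCV1 and GCV2 also failed without the second, with adjusted p reaching 0.0876, 0.203 and 0.208. GCV2 failed without either 10 h array as well. MTD1 and GCV3 differed by -0.10 and 0.03 and did not pass, with 95% intervals from -0.46 to 0.26 and from -0.34 to 0.39.

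From 8 h to 10 h, 0 rose and 7 fell, where 30.6% of all genes rose and 14.8% fell (21.7% and 24.3% after centring). SHM2 fell by 2.18 (SE 0.18, adjusted p = 7.89e-08), GCV1 by 1.78 (SE 0.17, adjusted p = 3.02e-07), MTD1 by 1.29 (SE 0.17, adjusted p = 1.04e-05), MIS1 by 1.25 (SE 0.19), SHM1 by 1.08 (SE 0.17) and GCV2 by 1.06 (SE 0.17). These 6 passed under all 15 alternatives. GCV3 fell by 0.54 (SE 0.17, adjusted p = 0.0161) and failed without any 1 of the 8 h or 10 h arrays, with adjusted p reaching 0.112. The decline of ADE3, -0.26, did not pass (95% interval -0.61 to 0.10), though it passed after centring at -0.45, over a range of adjusted p from 0.0102 to 0.665.

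The 10 h and 4 h values differed for 5 genes, all lower at 10 h, where 18.1% of all genes rose and 15.4% fell. MTD1 was lower by 1.39 on the log2 scale (a difference of -1.39, SE 0.17, adjusted p = 9.43e-06) and GCV1 had a difference of -1.22 (SE 0.17, adjusted p = 3.26e-05). Both passed under all 15 alternatives. GCV2, GCV3 and SHM2 differed by -0.54, -0.52 and -0.50 and each failed without either 10 h array, with adjusted p reaching 0.191, 0.180 and 0.290. GCV3 and SHM2 also failed without the second 4 h array, and SHM2 without either 8 h array. ADE3 had the only positive difference, 0.43 (95% interval 0.07 to 0.79, adjusted p = 0.0589). It passed after centring, at 0.42, and without the second 4 h array, at 0.51, with adjusted p from 0.00968 to 0.328 over the alternatives.

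**Figure D3:**
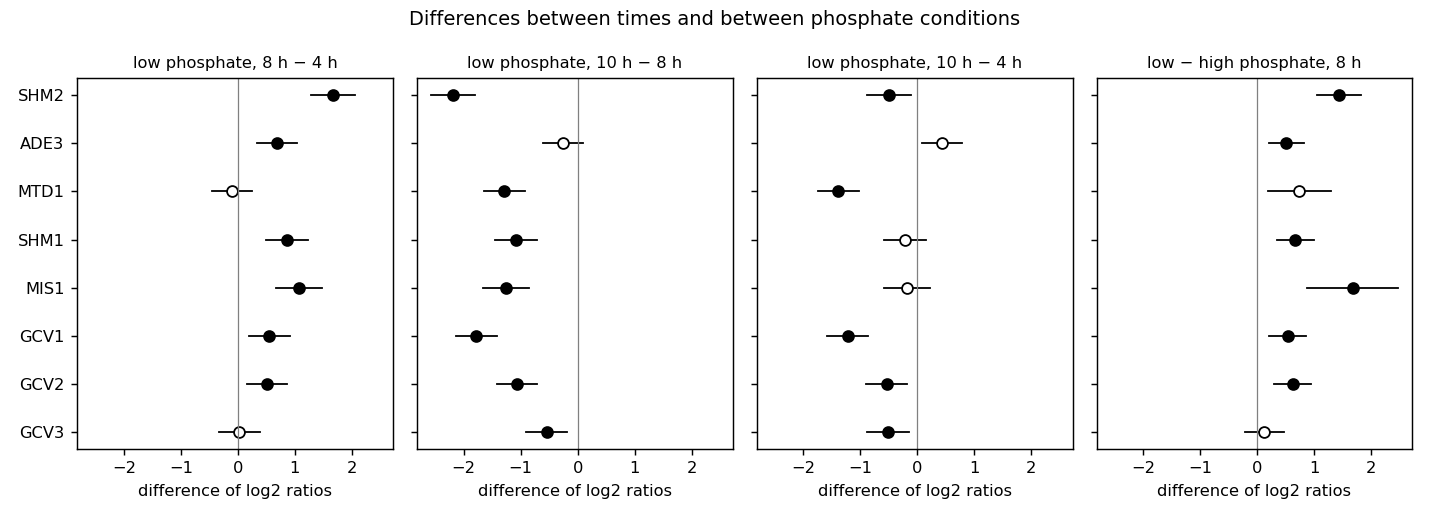
Differences of log2 ratios with 95% intervals for the 8 genes, between times at low phosphate (first 3 panels) and between low and high phosphate at 8 h (last panel). Filled points passed at an adjusted p under 0.05 and open points did not. SHM2 has the highest value of the first panel, 1.68, and the lowest of the second, -2.18, and ADE3 has the smallest difference between 8 h and 10 h, -0.26.

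At high phosphate none of the 8 genes passed at 4 h, at 8 h or over the mean of the 3 times, and 0.0% of the 4816 genes tested did in limma, the one tool run. ARR2, from 3.34 to 3.59 on the high phosphate arrays that measured it, did not pass either. These counts therefore do not show that genes failed to respond. At an unadjusted p under 0.05 limma gave 0 of the 8 at 4 h, 2 at 8 h and 1 for the mean, where 20.2%, 25.5% and 33.8% of all genes were under that value. SHM2 read 0.13 and 0.10 (4 h), 0.33 and 0.34 (8 h) and 0.35 (10 h). It was thus above control on 5 of 5 arrays, with a mean of 0.27 (SE 0.05, adjusted p = 0.0758). The mean passed without the first or the second 8 h array, with adjusted p from 0.0358 to 0.334 over its alternatives. The count over all genes moved as well, with 327 higher and 933 lower of 4229 genes without the first 8 h array and 250 higher and 1005 lower of 4588 without the second.

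GCV1 at high phosphate read -0.04 and 0.05 (4 h), 0.18 and 0.39 (8 h) and 0.22 (10 h) (mean 0.17, SE 0.06, adjusted p = 0.165). GCV2 stood at 0.10 and 0.01, then 0.39 and 0.12, then 0.23 (mean 0.18, SE 0.07, adjusted p = 0.173), so it was above control on each array. ADE3 stood between -0.03 and 0.32, SHM1 between -0.06 and 0.25 and GCV3 between -0.18 and 0.15. Each of these 3 genes had its highest ratio on the lone 10 h array, as did SHM2 and MTD1. The median over genes was -0.01 on that array and between -0.14 and -0.12 on the other high phosphate arrays.

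MIS1 and MTD1 carried the widest spread at high phosphate, and it came from the first 8 h array. MIS1 stood at -1.02 and 0.19 at 8 h, and MTD1 at -0.76 and 0.02. On that first array the spots of each gene disagreed, at -2.07 and 0.02 for MIS1 and at -1.32 and -0.19 for MTD1. These were the 2 of 30 pairs of spots at high phosphate that differed by more than 0.5, against 0 of 35 at low phosphate. Taken from the highest-numbered spot alone, the 8 h means were 0.12 for MIS1 and -0.09 for MTD1. Without the second 8 h array MIS1 passed as lower at 8 h, at -1.02, and for the mean of the 3 times, at -0.30. Adjusted p over the alternatives ran from 0.0217 to 0.644 and from 0.0358 to 0.993 for these values. Without the second 8 h array 29 genes were higher and 535 lower at 8 h over all 4588 genes tested. On the 4 high phosphate arrays other than the first at 8 h MIS1 lay between -0.02 and 0.19 and MTD1 between -0.21 and 0.10.

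The ratios at low phosphate were then set against those at high phosphate. Both conditions shared 1 estimate of spread per gene in this fit. Replicates were less alike at high phosphate, with r at 8 h of 0.199 against 0.936 at low phosphate. The 2 conditions were on different array designs, so phosphate and array design cannot be told apart, and a dye preference cancels only if it is the same on both. At 8 h 6 of the 8 genes were higher at low phosphate and 0 lower, where 18.8% of all 4841 genes tested were higher and 9.92% lower. SHM2 averaged 1.77 at low and 0.34 at high phosphate, a difference of 1.44 (SE 0.17, adjusted p = 0.00107), and it passed under all 20 alternatives. MIS1 averaged 1.26 at low and -0.42 at high phosphate (difference 1.68, SE 0.35, adjusted p = 0.0086). With the highest-numbered spot alone the difference of MIS1 was 1.05 and passed, and with the lowest-numbered spot alone it was 2.59 and did not (adjusted p = 0.0502). Without the first low phosphate 8 h array it did not pass either, with adjusted p from 2.44e-05 to 0.0726.

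SHM1 averaged 0.70 at low and 0.03 at high phosphate at 8 h (difference 0.67, SE 0.14, adjusted p = 0.00939), and ADE3 0.48 at low and -0.03 at high phosphate (difference 0.51, SE 0.14, adjusted p = 0.0228). For GCV2 the averages were 0.88 at low and 0.25 at high phosphate (difference 0.62, adjusted p = 0.0133), and for GCV1 0.82 at low and 0.29 at high phosphate (difference 0.53, adjusted p = 0.0242). None of these 4 passed without the first low phosphate 8 h array, and SHM1, ADE3 and GCV1 also failed without the second. GCV1 also failed without the first high phosphate 8 h array, at 0.43. The highest adjusted p over the alternatives was 0.0649 for SHM1, 0.154 for ADE3, 0.0989 for GCV2 and 0.159 for GCV1. MTD1 had a difference of 0.74 (adjusted p = 0.0502), which was 1.14 from its lowest-numbered and 0.34 from its highest-numbered spot. It passed after centring, at 0.75, and without the second high phosphate 8 h array, at 1.13, and its adjusted p ran from 0.001 to 0.211. GCV3 differed by 0.12 (95% interval -0.21 to 0.46).

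At 4 h 0 of the 8 passed between the conditions, where 7.6% of all genes were higher and 1.36% lower at low phosphate (4.4% and 3.86% after centring). In limma 1 of the 8 and 27.2% of all genes had an unadjusted p under 0.05. The 1 was MTD1, which averaged 0.48 at low and -0.08 at high phosphate (difference 0.56, adjusted p = 0.18). It passed without the first or the second high phosphate 8 h array, over a range from 0.0262 to 0.513. ADE3 averaged -0.21 at low and 0.10 at high phosphate (difference -0.31, adjusted p = 0.187) and passed after centring, at -0.49, over a range from 0.0115 to 0.522. Over the 3 times together again 0 of 8 passed, where 19.0% of all genes were higher and 4.92% lower (16.0% and 10.9% after centring), and 1 of the 8, MIS1 (0.58, adjusted p = 0.0862), and 39.4% of all genes had an unadjusted p under 0.05. MIS1 passed without either high phosphate 8 h array, and GCV1 passed as lower, at -0.45, without the 8 h arrays. The 10 h values ran against those of 8 h in that mean. GCV1 stood at -0.98 and -0.92 at low phosphate and at 0.22 on the single high phosphate array at 10 h, and MTD1 at -0.93 and -0.90 at low and 0.10 at high phosphate. Without the high phosphate 10 h array, so over 4 and 8 h alone, 5 of the 8 passed as higher at low phosphate, SHM2 at 0.71, MTD1 at 0.65, MIS1 at 0.86, GCV1 at 0.40 and GCV2 at 0.46. Adjusted p over the alternatives of that mean ran from 0.00421 to 0.678, from 0.0229 to 0.961, from 0.000719 to 0.924, from 0.0196 to 0.555 and from 0.0113 to 0.771 for these genes in that order.

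The isozymes of the same reactions were compared within each array. The cytosolic SHM2 minus the mitochondrial SHM1 was 0.29 and 0.22 (4 h), 1.25 and 0.89 (8 h), and -0.07 and 0.00 (10 h) at low phosphate. The mean difference over the 6 arrays was 0.43 (SD 0.53), above 0 on 4 of them. It did not pass an exact sign-flip permutation test (two-sided p = 0.125, adjusted p = 0.188 over the 2 pairs). The smallest p that 6 arrays allow is 0.0313. After adjustment a pair could pass only if both pairs reached that p, so no conclusion is drawn from this test. The trifunctional enzymes ran the other way at 4 and 8 h. The cytosolic ADE3 minus the mitochondrial MIS1 was -0.28 and -0.50 (4 h), -0.87 and -0.69 (8 h), and 0.32 and 0.13 (10 h), with a mean of -0.31 (SD 0.46, exact two-sided p = 0.188, adjusted p = 0.188). At high phosphate SHM2 minus SHM1 lay between 0.10 and 0.30 on the 5 arrays, and ADE3 minus MIS1 between -0.22 and 0.99. The 0.99 comes from the first 8 h array, where the MIS1 spots disagreed, and the next highest value was 0.33. The 5 arrays cannot reach an exact two-sided p under 0.05, so no test was made there. Probe sequences were not used here, so signal shared between isozymes could not be assessed.

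**Figure D4:**
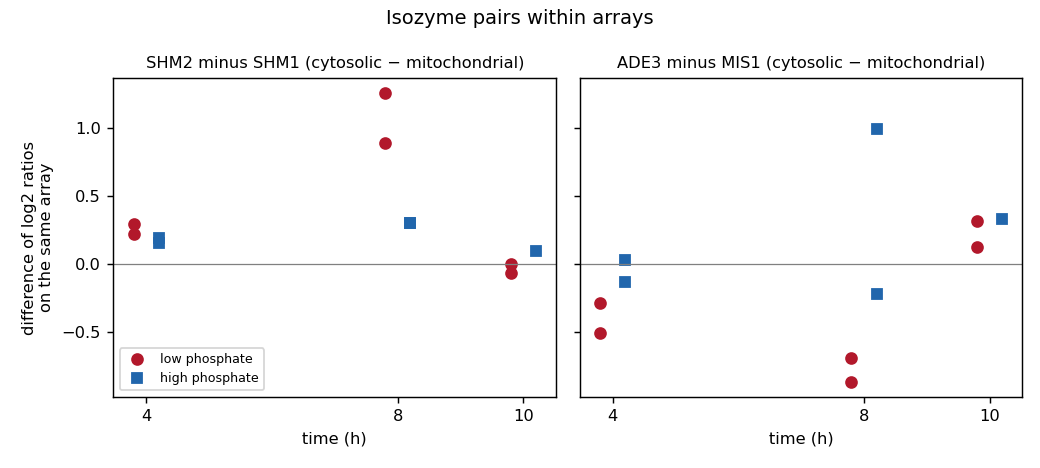
Difference of log2 ratios between the cytosolic and the mitochondrial isozyme on the same array (vertical axis) against time in hours, with 1 point per array. Circles are low phosphate and squares high phosphate. The SHM2 minus SHM1 values at 8 h of low phosphate (1.25 and 0.89) are the highest of that pair, and ADE3 minus MIS1 is negative on all 4 low phosphate arrays of 4 and 8 h.

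The genes did not share one time course. Over the 6 low phosphate arrays the closest pairs of the 8 were MTD1 with GCV1, which differed by 0.29 on average (root mean square difference of log2 ratios), and MIS1 with GCV2, which also differed by 0.29. Among the 4747 genes measured on all 6 arrays, those nearest to SHM2 were ADE17, a purine enzyme that uses formyl-tetrahydrofolate (0.21), LEU9, an enzyme of leucine synthesis (0.23), and URA7, a CTP synthase (0.23). GCV1 lay nearest to KRR1, NOP6 and BMT5, and GCV2 to SLX9, PNO1 and DBP9, at 0.06 to 0.10. The nearest to MTD1 were POP3, NOP15 and NAT4 (0.11 to 0.13). MIS1 lay nearest to RPL14B, RPS21A and GLN4 (0.14 to 0.15), ADE3 to HIS6, NUP1 and SSA2 (0.05 to 0.06), SHM1 to EFM1, SXM1 and RBG2 (0.07 to 0.12), and GCV3 to RSA1, BUB2 and NSE1 (0.06 to 0.08). The distances are a description of 6 arrays and were not tested.

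LPD1, the subunit that glycine cleavage shares with other complexes, did not follow the GCV genes at 4 and 8 h of low phosphate. At 10 h its mean lay below control, as did those of the GCV genes. LPD1 read -0.30 and -0.24 (4 h), -0.49 and -0.47 (8 h) and -0.46 and -0.35 (10 h) in low phosphate, below control on 6 of 6 arrays. It passed as lower at 8 h (mean -0.48, SE 0.12, adjusted p = 0.00227) and at 10 h (mean -0.40, SE 0.12, adjusted p = 0.0131), and at high phosphate its 5 values lay between -0.10 and 0.06. Neither call held without either array of its time, with adjusted p reaching 0.068 at 8 h and 0.308 at 10 h. Of the 7 genes of serine and glycine supply, with LPD1 among them, 3 rose and 2 fell at 8 h of low phosphate, where 18.3% of all genes rose and 30.5% fell, with 1 to 3 lower over the alternatives. SER1, of phosphoserine synthesis, stood at 0.83 (SE 0.12, adjusted p = 1.72e-05) and GLY1, the threonine aldolase that makes glycine, at 0.61 (SE 0.13, adjusted p = 0.000574). AGX1, which makes glycine from glyoxylate, fell at 8 h (mean -0.81) and at 10 h (mean -0.68). At 4 h it had a value on the first array alone, -0.68, and its call there assumes that this array varies like the other groups and was lost with array weights (adjusted p up to 0.172). At 10 h 0 of the 7 rose and AGX1 and LPD1 fell, where 20.2% of all genes rose and 12.8% fell.

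The purine synthesis genes of the Bas1-Pho2 regulon had 8 of 9 members measured. Of these 8 rose and 0 fell at 8 h of low phosphate, with a median of 0.87. Over all genes 18.3% rose and 30.5% fell at that time, with a median of -0.13. The shares of all genes higher and lower were 14.7% and 11.6% at 4 h and 20.2% and 12.8% at 10 h. From 8 h to 10 h they were 30.6% and 14.8%. At 8 h ADE17 stood at 1.74 and 1.20 (mean 1.47, SE 0.13). ADE4, the first enzyme of the pathway, stood at 1.28 and 1.35 (mean 1.32, SE 0.12), and ADE13 at 1.16 and 0.98 (mean 1.07, SE 0.12). These counts at 8 h were the same under all 15 alternatives. At 4 h 0 of the 8 passed, with 2 at an unadjusted p under 0.05 in limma, and without the first 4 h array 2 rose. At 10 h 0 rose and 2 fell, ADE1 at -0.66 (SE 0.12) and ADE17 at -0.45 (SE 0.13). Without the first 10 h array 0 of the 8 passed at that time and without the second 1 did, while 5 fell after centring or without either 4 h array. Between 8 h and 10 h 8 of the 8 fell, and 7 or 8 did under each alternative. At high phosphate none passed at 4 h, at 8 h or over the mean of the 3 times, while 1, 4 and 4 of them had an unadjusted p under 0.05 in limma, as did 20.2%, 25.5% and 33.8% of all genes. No gene passed in those fits, ARR2 included. Of the activators, BAS1 read 0.31 and 0.54 (4 h), 0.52 and 0.33 (8 h) and -0.14 and -0.22 (10 h). It passed at 4 h and 8 h (adjusted p = 0.0143 and 0.00696). The 4 h call was lost with array weights and without the second 4 h array. The 8 h call was lost from its highest-numbered spot alone and without the first 8 h array. PHO2 had the reverse course, at -0.87 and -0.49, then -0.43 and -0.52, then 0.59 and 0.68, and passed at each time, though not without the second 8 h array (adjusted p = 0.121) or the second 10 h array (0.0546). GCN4, the activator of amino acid synthesis genes, fell at 10 h (mean -0.45, SE 0.12, adjusted p = 0.00863), a call that failed without either 10 h array (up to 0.174). BAS1 differed between the conditions at 8 h, with 0.43 at low and -0.44 at high phosphate (difference 0.87, SE 0.14, adjusted p = 0.00313), a call lost from its highest-numbered spot alone (adjusted p = 0.0628). BAS1 was also called higher at low phosphate at 4 h (difference 1.04) and over the mean of the 3 times (0.71). The alternatives of these calls are not given.

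Enzymes that make folate did not move together. Of 8 genes of folate synthesis and polyglutamylation, 2 rose and 1 fell at 4 h of low phosphate, 1 rose and 3 fell at 8 h, and 1 rose and 2 fell at 10 h. Over all genes the shares higher and lower were 14.7% and 11.6% (4 h), 18.3% and 30.5% (8 h) and 20.2% and 12.8% (10 h), and over the alternatives the counts ran from 0 to 3 higher at 4 h and from 0 to 3 lower at 8 h and at 10 h. FOL2, GTP cyclohydrolase, rose at 4 h (0.55, SE 0.12) and stood at -0.15 at 8 h, and its call at 4 h was lost with array weights (adjusted p up to 0.0736). FOL1, which acts in the later steps, rose at both (0.49 and 0.42, each SE 0.14), and FOL3, dihydrofolate synthetase, rose at 10 h (0.59, SE 0.12). FOL1 failed without the second array of either time, and FOL3 without the second 10 h array (adjusted p up to 0.263, 0.367 and 0.0593). The genes of this list that fell were ABZ1 (-0.47 at 4 h and -0.41 at 8 h), ABZ2 (-0.35 at 8 h), RMA1 (-0.46 at 8 h and -0.53 at 10 h) and DFR1 (-0.36 at 10 h). Each of these falls was lost under at least 1 alternative. Of the 9 genes that use or redirect one-carbon folates 8 were tested. At 8 h 4 rose and 1 fell, and at 10 h 3 rose and 1 fell, with 3 to 5 and 1 to 3 higher over the alternatives. ADE8 and ADE17, already counted with the purine genes, were among the 4 that rose at 8 h. ADE17 was the 1 that fell at 10 h. MET6, the methionine synthase, rose at 4, 8 and 10 h (0.56, 0.85 and 0.73), and MET13, a methylene-tetrahydrofolate reductase, rose at 8 and 10 h (0.54 and 0.63). At 10 h these 2 genes were thus above control while MTD1, SHM2 and GCV1 were below it. CDC21, the thymidylate synthase, fell at 8 h (-0.48, SE 0.12) and rose at 10 h (0.40, SE 0.12), with neither call held without either array of its time (adjusted p up to 0.0987 and 0.359). MET6 failed without the second 4 h or second 10 h array (up to 0.0928 and 0.0515), and MET13 without the first 8 h or first 10 h array (up to 0.0689 and 0.137).

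**Figure D5:**
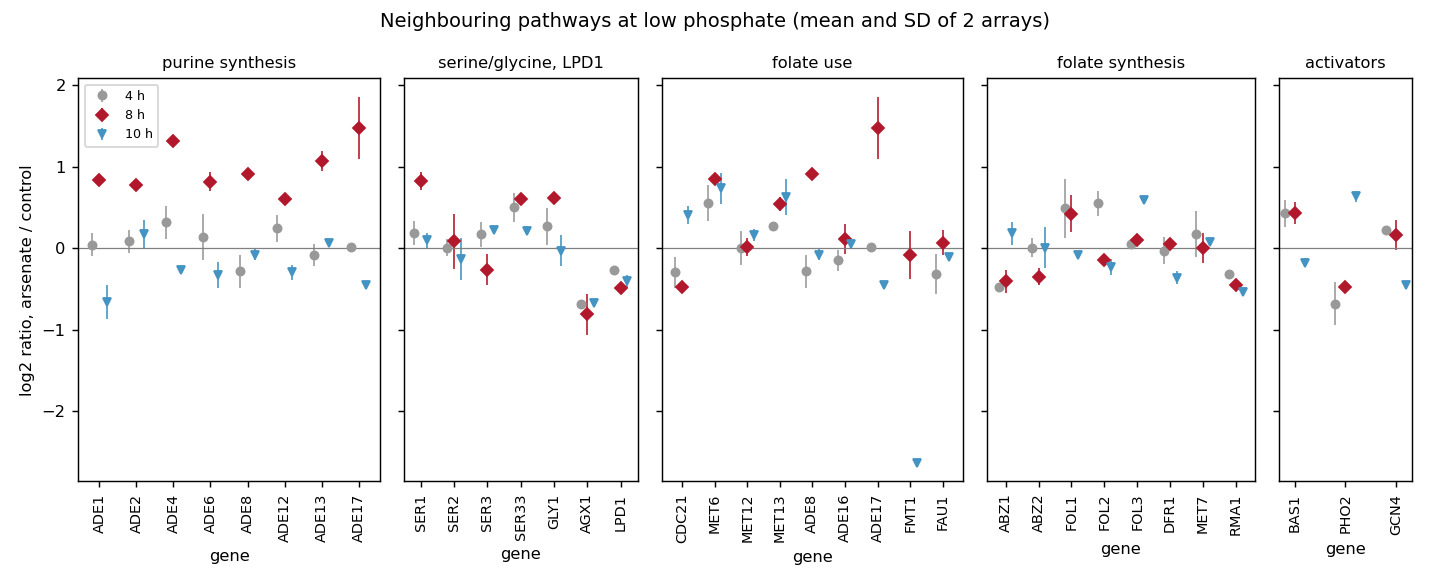
Log2 ratio of arsenate over control at low phosphate for genes of neighbouring pathways, as the mean of 2 arrays with the SD as a bar (a symbol with no bar has 1 array or an SD smaller than the symbol), at 4, 8 and 10 h. The purine genes lie highest at 8 h, from 0.60 to 1.47, MET6 and MET13 lie above 0 at each time, and PHO2 is below 0 at 4 and 8 h and above it at 10 h. FMT1 at 10 h, the lowest point, rests on 1 array and was not tested.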

How the data were processed

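The 2 tables of deposited values, 1 for the 6 low and 1 for the 5 high phosphate arrays, were taken as log2 ratios normalized by the authors. Per the labels, arsenate RNA carried Cy5 and control RNA Cy3, and normalization took the spots whose flag was 0. The sources used here do not state its method, the software, the log base or the direction, so base 2 was taken from the size of the values and the direction from the dyes. With no intensities, signal over background is unknown, and precision is limited by the number of arrays.

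Spots were named through the platform annotation, with 9202 of 10807 spots naming a gene at low and 9271 at high phosphate, and symbols were updated through RefSeq. Spots of a gene were averaged. Genes with a value in every group and at least 1 residual degree of freedom were fitted with limma 3.58.1 in R 4.3.3 (lmFit, eBayes), 1 mean per condition and time, two-sided, with Benjamini-Hochberg adjustment over 5185 (low), 4816 (high) or 4841 genes (both). Prior degrees of freedom were 15.5, 1.72 and 3.49. At low phosphate a standard error is thus mostly a pooled value. The lone high phosphate array at 10 h was assumed to vary like the other groups. The fits were run on simulated data with independent noise for each gene, as a check on the estimated size of a known shift. Offsets of whole arrays and single deviating spots were not simulated. Tables and the exact tests used Python 3.11.15, pandas 2.3.3 and numpy 2.4.6, and figures matplotlib 3.10.9.

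The members, the lists and the rule for naming genes were chosen with earlier results of these data known. Named were the 8 members, LPD1, 3 activators, up to 4 called genes a list in each comparison, and 3 nearest genes a member. Over genes, deviations of the first replicates from their group means correlated weakly between low phosphate times. Pearson's r was 0.11 (4 and 8 h), 0.14 (4 and 10 h) and 0.19 (8 and 10 h). It was -0.02 between the high phosphate times, and -0.09 (4 h) and 0.14 (8 h) between the conditions. Whether the replicate numbers pair arrays cannot be told from these values, and the main fits assumed no pairing. Alternatives were the median over spots, arrays centred on their median without or with scaling, genes on every array only, array weights, a robust variance prior, the replicate block, and each array left out in turn. The lowest- or highest-numbered spot alone, the means without the 8 h arrays and the repeats for the neighbouring lists were added after the data were seen. ADE5,7, which no annotated spot named, and FMT1, with values at only some low phosphate times, were not tested.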

Additional observations from a re-analysis of the deposited data

Results flagged for a closer look

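Results that differed between times or between phosphate conditions by a test of the difference itself are collected here, as differences of log2 ratios from limma. For 8 h minus 4 h at low phosphate they were SHM2 (1.68), MIS1 (1.07), SHM1 (0.86), ADE3 (0.69), GCV1 (0.55) and GCV2 (0.52). For 10 h minus 8 h they were SHM2 (-2.18), GCV1 (-1.78), MTD1 (-1.29), MIS1 (-1.25), SHM1 (-1.08), GCV2 (-1.06) and GCV3 (-0.54). For 10 h minus 4 h they were MTD1 (-1.39), GCV1 (-1.22), GCV2 (-0.54), GCV3 (-0.52) and SHM2 (-0.50). For low minus high phosphate at 8 h they were MIS1 (1.68), SHM2 (1.44), SHM1 (0.67), GCV2 (0.62), GCV1 (0.53) and ADE3 (0.51), where array design and phosphate cannot be told apart. The MIS1 difference there was 1.05 from its highest-numbered spot alone, and only SHM2 passed under all alternatives. Between times, SHM2, MIS1 and SHM1 (8 h minus 4 h), all listed but GCV3 (10 h minus 8 h), and MTD1 and GCV1 (10 h minus 4 h) did.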

How the results depend on the processing

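Counts below are of the 8 genes that passed, out of those in the comparison named. At 4 h of low phosphate 2 passed, against 4 after centring, 5 after centring and scaling, 0 with array weights, and 1 from either the lowest- or the highest-numbered spot, with 0 to 3 when 1 array was left out. At 10 h 5 passed, against 3 from either spot and 2 to 5 without 1 array. The mean of the 3 times gave 3, against 1 without the 8 h arrays (3 to 4 without 1 array), where SHM2 turned to -0.16 and GCV1 to -0.34. At 8 h 7 passed (5 to 7 without 1 array), for 8 h minus 4 h 6 (3 to 6) and for 10 h minus 8 h 7 (6 to 7). For 10 h minus 4 h 5 passed, against 2 with array weights, 2 from the lowest-numbered spot and 2 to 5 without 1 array. At high phosphate 0 passed, with 0 to 2 for the mean and 0 to 1 at 8 h without 1 array. For low minus high phosphate, the mean gave 0, against 1 after centring and scaling, 1 with array weights, 1 without the 8 h arrays and 0 to 5 without 1 array. The 5 came without the high phosphate 10 h array, where the mean covered 4 and 8 h alone and the low phosphate 10 h values dropped out too. GCV1 stood at 0.40 in that mean, against -0.12 over the 3 times. At 4 h low minus high phosphate gave 0, against 1 after centring, 2 after centring and scaling and 0 to 1 without 1 array, and at 8 h 6, with 1 to 7 without 1 array. Leaving out a time changes what a mean covers, and the cause of the other changes was not tested. The replicate block gave the same counts, 2 at 4 h, 7 at 8 h and 5 at 10 h of low phosphate, and changed none of the 104 calls. The spot medians changed none either, since no gene here has over 2 spots. SHM2 minus SHM1 ran from 0.27 to 0.53 and ADE3 minus MIS1 from -0.44 to -0.20 without 1 array.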
